A study of Mus musculus with 20 samples.

Results

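CC chemokines are small secreted proteins, named after a pair of adjacent cysteines, that direct leucocytes by binding receptors with several membrane-spanning segments on monocytes, macrophages, eosinophils, dendritic cells and lymphocytes. The 10 genes described here were Ccl2, Ccl3, Ccl4, Ccl5, Ccl6, Ccl7, Ccl8, Ccl9, Ccl11 and Ccl20, taken as every non-control probe that carried one of these names on the array. They were measured by 12 of the 41174 probes, with a pair of probes each for Ccl5 and Ccl7, and all 12 were among the 26063 probes that were tested, having signal well above background on 10 or more of the 20 arrays.

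The study asked how loss of Myd88, the adaptor protein through which most Toll-like receptors and the interleukin-1 receptor activate NF-kB, altered gene expression in the trachea at rest and during epithelial repair. RNA from 20 whole mouse tracheas was hybridised to one-colour Agilent arrays, with 5 biological replicates in each of 4 groups. The mice were C57/Bl6, aged 4 months per the labels, and either wild-type or Myd88KO. Uninjured tracheas came from control mice. Injured tracheas were collected 3 days after instillation of 2% polidocanol, a detergent that strips the tracheal epithelium. The Myd88KO mice lacked Myd88 in every cell of the body, had been back-crossed to C57/Bl6JOlaHsd and were bred as a colony separate from the wild-type mice, and males and females were used, so genotype, colony and any difference in the mix of sexes cannot be told apart.

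Monocyte-attracting members of this family act through Ccr2, members such as Ccl3, Ccl6 and Ccl9 act through Ccr1, Ccl11 acts through Ccr3, and Ccl20 acts through Ccr6. In damaged mucosa they are made by macrophages, fibroblasts and epithelial cells, many of them in response to NF-kB. Ccl2, Ccl7, Ccl8 and Ccl11 lie in one gene cluster and Ccl3, Ccl4, Ccl5, Ccl6 and Ccl9 in another, both on chromosome 11, whereas Ccl20 lies on chromosome 1.

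Because Ccl3, Ccl8 and Ccl9 rose and Ccl20 fell after injury, the 250 bases before their transcription start are shown (RefSeq, GRCm38.p6, given 5′ to 3′ on the strand of the gene). Capitals mark matches, on either strand, to the NF-kB consensus, the AP-1 motif TGANTCA, the GAS motif TTCNNNGAA bound by STAT proteins, and the TATA box TATAAA. RefSeq promoters were at hand for 5 of the 10 genes, Ccl3, Ccl6, Ccl8, Ccl9 and Ccl20. That of Ccl6, which also rose, was searched in the same way but is not printed.
Ccl3, chr11:83649379-83649628, minus strand: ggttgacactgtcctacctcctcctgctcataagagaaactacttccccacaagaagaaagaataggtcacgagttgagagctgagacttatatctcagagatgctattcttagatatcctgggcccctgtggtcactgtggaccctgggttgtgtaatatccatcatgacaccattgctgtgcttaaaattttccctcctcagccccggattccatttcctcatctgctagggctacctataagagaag
Ccl8, chr11:82114935-82115184, plus strand: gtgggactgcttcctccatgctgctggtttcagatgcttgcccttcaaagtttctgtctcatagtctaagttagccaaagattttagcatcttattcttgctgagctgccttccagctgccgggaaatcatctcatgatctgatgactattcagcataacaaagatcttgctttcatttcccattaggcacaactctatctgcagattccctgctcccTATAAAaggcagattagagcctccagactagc
Ccl9, chr11:83578637-83578886, minus strand: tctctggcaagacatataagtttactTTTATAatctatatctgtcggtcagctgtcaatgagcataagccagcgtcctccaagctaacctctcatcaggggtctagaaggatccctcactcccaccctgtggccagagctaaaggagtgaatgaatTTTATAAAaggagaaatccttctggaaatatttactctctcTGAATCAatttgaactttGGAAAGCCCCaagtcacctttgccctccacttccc
Ccl20, chr1:83116516-83116765, plus strand: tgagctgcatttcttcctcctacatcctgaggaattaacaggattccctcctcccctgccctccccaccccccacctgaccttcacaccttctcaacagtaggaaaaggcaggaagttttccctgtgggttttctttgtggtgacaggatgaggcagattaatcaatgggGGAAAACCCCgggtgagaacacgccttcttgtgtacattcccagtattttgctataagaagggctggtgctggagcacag
The NF-kB consensus matched once in Ccl20, from base -80 to base -71 counted from the start, and once in Ccl9, from base -35 to base -26. It was present in 7.25% of the 32841 RefSeq promoters of the same length. Ccl9 also held 1 AP-1 match (6.75% of promoters), from base -53 to base -47, and 3 TATA box matches (12.4% of promoters), of which those starting at bases -94 and -92 overlapped. Ccl8 held 1 TATA box match at base -32, and no promoter of the 5 held the GAS motif (7.02% of promoters). The windows of Ccl3 and Ccl6 held none of the 4 motifs, which says only that these letters were absent from these bases.

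Levels are given as log2 of the processed intensity minus the 75th percentile of the array, so 0 is the level of that percentile, and differences are on the log2 scale. Probes were called at a Benjamini-Hochberg adjusted p under 0.01 in limma, over all tested probes. On each array 57.5% to 67.8% of probes lay well above background. Each of the 5 slides carried 1 array of every group, all with the same replicate number, and the slides of replicates 1 and 5 were scanned on one day and the other 3 on another. The Myd88 probe read 2.08 ± 0.14 in uninjured and 2.65 ± 0.18 in injured wild-type tracheas against 1.86 ± 0.17 and 1.89 ± 0.26 in the Myd88KO groups (SD, n = 5 each). Its level was lower in injured Myd88KO than in injured wild-type tracheas (log2 difference -0.77, SE 0.14, adjusted p = 0.00824), whereas the uninjured groups did not differ significantly (-0.21, SE 0.14, adjusted p = 1.00). The sources used here do not say whether this probe lies within the deleted part of the gene.

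After polidocanol, most CC chemokine transcripts were strongly increased in wild-type tracheas. Ccl2, Ccl4, Ccl6, Ccl7, Ccl8 and Ccl9 rose by 9.07-fold to 12.1-fold, Ccl3 also rose, Ccl20 fell, and Ccl5 and Ccl11 did not pass the test. The size of the Ccl3 and Ccl20 changes depended on the background correction, since Ccl3 was well above background on 1 of 5 uninjured and Ccl20 on 2 of 5 injured wild-type arrays. By probe, 8 of 12 were called higher and 1 lower, against 3.24% and 2.03% of all probes tested. The injured and uninjured wild-type groups did not overlap for the same number of probes, 8 higher and 1 lower, against 7.89% and 4.68% of all probes. The median log2 difference of the 12 probes was 3.35, and that of all probes was 9.9e-05.

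In Myd88KO tracheas the same 7 genes had positive log2 differences of 1.17 to 3.07, but Ccl8 alone of the 12 probes was called (0.134% of all probes were called higher). No member probe separated the injured from the uninjured Myd88KO group, against 1.15% of probes that were higher without overlap. The median log2 difference of the 12 probes was 1.32, beside -0.069 over all probes. In whole tissue, a change in the number of cells that make a transcript and a change in the RNA per cell cannot be told apart.

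**Figure D1:**
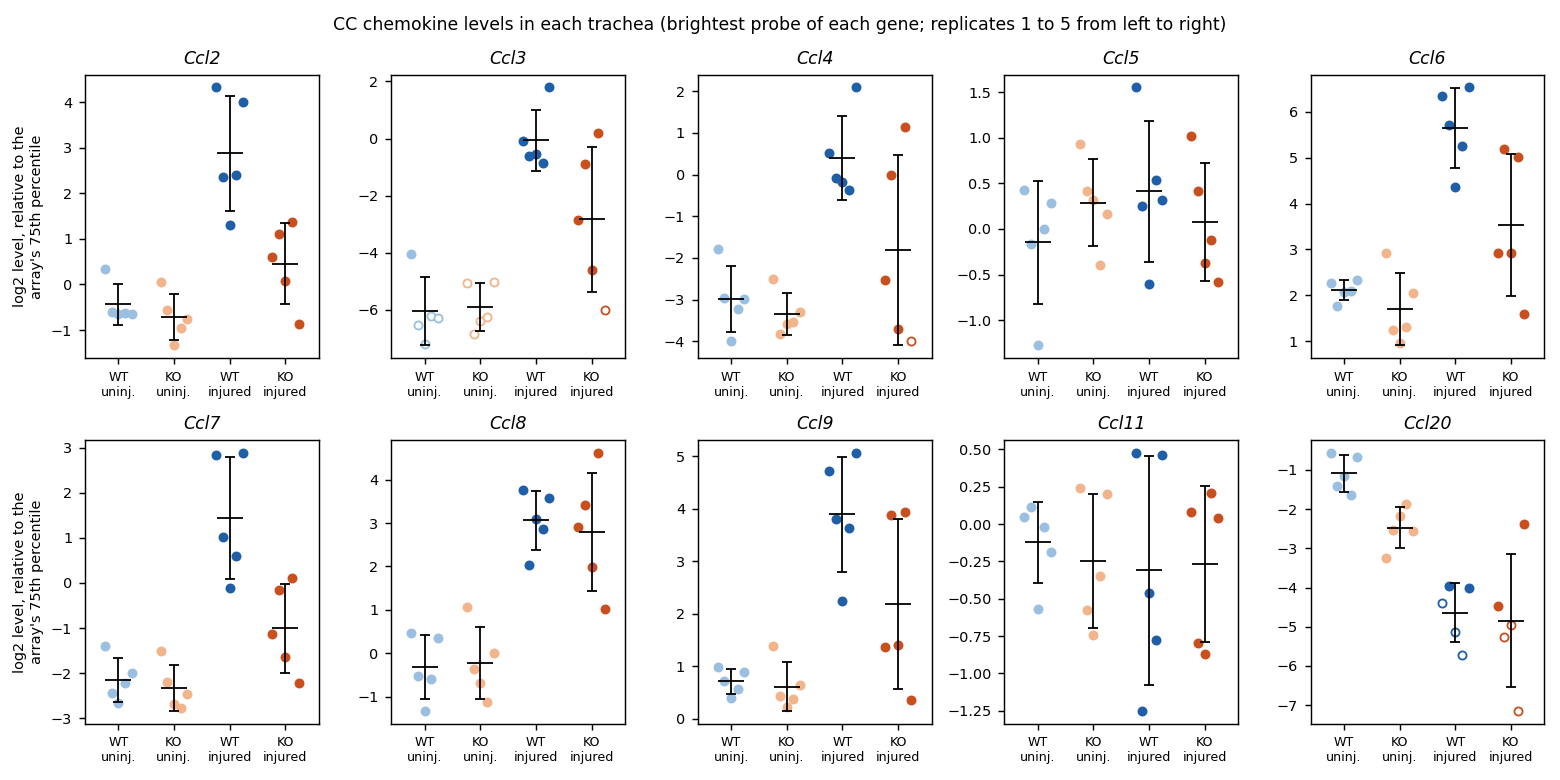
Log2 level of each CC chemokine, relative to the 75th percentile of the array, in the 4 groups of 5 tracheas. Points are arrays, ordered from replicate 1 to 5, open points were not well above background, and bars are the mean and SD. In the 7 genes that rose, every injured wild-type value lies above every uninjured wild-type value, while the injured Myd88KO values spread from the uninjured range upwards.

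Ccl2 and Ccl7 encode the monocyte chemoattractants MCP-1 and MCP-3, which draw monocytes out of bone marrow and into tissue through Ccr2. In replicates 1 to 5, the log2 level of Ccl2, the mean of 10 spots per array, was 0.35, -0.61, -0.66, -0.62 and -0.66 in uninjured wild-type tracheas and 4.33, 2.36, 1.30, 2.40 and 4.01 in injured wild-type tracheas. All 5 injured values exceeded all 5 uninjured values, and replicates 1 and 5, those of the second scanning day, were highest. Ccl2 rose 9.97-fold (log2 difference 3.32, SE 0.49, adjusted p = 0.000482), a call lost with the methods' parametric test (adjusted p = 0.0118). The log2 difference was 2.65 between the 3 arrays per group of the first scanning day and 4.32 between the 2 of the second.

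In Myd88KO tracheas the Ccl2 log2 level was 0.05, -0.56, -1.34, -0.96 and -0.75 without injury and 0.61, 1.12, 0.07, 1.37 and -0.87 after it. Only replicates 1, 2 and 4 of the injured group exceeded the highest uninjured value by more than 0.5, replicate 3 lay beside it, and replicate 5 lay inside the uninjured range. The log2 difference was 1.17 (SE 0.49, adjusted p = 0.200), which did not pass the threshold.

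For the first Ccl7 probe the log2 level was -1.41, -2.44, -2.67, -2.23 and -2.0 in uninjured and 2.83, 1.02, -0.11, 0.59 and 2.89 in injured wild-type tracheas. The groups did not overlap, and the second scanning day again gave the highest injured values. Ccl7 rose 12.1-fold (log2 difference 3.59, SE 0.53, adjusted p = 0.000465), and the second probe gave 11.0-fold (3.46, SE 0.53, adjusted p = 0.000568). The call of the first probe was lost with the methods' parametric test (adjusted p = 0.0115). In Myd88KO tracheas its log2 level was -1.51, -2.19, -2.68, -2.78 and -2.47 without injury and -1.13, -0.16, -1.63, 0.12 and -2.22 after it, so that injured replicates 3 and 5 fell within the uninjured range. The log2 difference was 1.32 for both probes (SE 0.53, adjusted p = 0.176 and 0.174).

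Ccl8 encodes MCP-2, another monocyte chemoattractant, which in the mouse also signals through Ccr8. Its log2 level in replicates 1 to 5 was 0.47, -0.51, -1.32, -0.58 and 0.35 in uninjured and 3.75, 2.04, 3.08, 2.86 and 3.58 in injured wild-type tracheas. The groups did not overlap and Ccl8 rose 10.4-fold (log2 difference 3.38, SE 0.55, adjusted p = 0.000900). In Myd88KO tracheas the log2 level was 1.07, -0.36, -0.68, -1.12 and 0.02 without injury and 2.91, 3.41, 2.00, 4.62 and 1.03 after it.

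Of the 5 injured Myd88KO tracheas, 4 exceeded every uninjured value of Ccl8, and replicate 5, at 1.03, lay just under the highest uninjured one. Ccl8 rose 8.03-fold in Myd88KO tracheas (log2 difference 3.01, SE 0.55, adjusted p = 0.00866), by 1.01 to 5.73 on each of the 5 slides. This call was close to the threshold. It was lost without any one of 17 of the 20 arrays (adjusted p up to 0.0340), all but uninjured wild-type replicate 3, injured wild-type replicate 2 and injured Myd88KO replicate 5, and under 3 of 10 other alternatives, among them the fit of the Myd88KO groups alone (adjusted p = 0.0830, range over 30 alternatives 0.000102 to 0.170).

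Ccl3 and Ccl4 encode MIP-1alpha and MIP-1beta, which are released by activated macrophages, neutrophils and lymphocytes, and Ccl5 encodes RANTES, which is abundant in T and NK cells. Ccl3 was near the floor of the array in uninjured tracheas, being well above background on 1 of 5 uninjured wild-type and 0 of 5 uninjured Myd88KO arrays. Its log2 level was -4.03, -6.54, -7.21, -6.20 and -6.27 in uninjured and -0.10, -0.63, -0.54, -0.85 and 1.79 in injured wild-type tracheas. Those groups were far apart, and all 5 injured wild-type arrays were well above background.

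The log2 difference of Ccl3 in wild-type tracheas was 5.98 (SE 0.90, adjusted p = 0.000543), or 63.2-fold. With another background correction (normexp) it was 2.92 (adjusted p = 0.000822), so the size of this change depended on how dim signals were treated. In Myd88KO tracheas the log2 level was -5.04, -6.83, -6.39, -6.25 and -5.01 without injury and -2.86, -0.89, -4.59, 0.19 and -6.00 after it. Replicate 5 of the injured Myd88KO group was not above background, and the other 4 exceeded every uninjured value. The log2 difference was 3.07 (SE 0.90, adjusted p = 0.0670), and with normexp it was 1.44 (adjusted p = 0.112). With the uninjured Myd88KO values raised to the detection floor of their arrays, the injured group mean was 4.48-fold higher, a value without a test.

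Ccl4 had log2 levels of -1.79, -2.96, -3.99, -3.23 and -2.99 in uninjured and 0.52, -0.08, -0.18, -0.37 and 2.09 in injured wild-type tracheas. It rose 10.5-fold without overlap (log2 difference 3.39, SE 0.77, adjusted p = 0.00724), a call that was lost with the slide as a block (adjusted p = 0.0110), with no filter on dim probes (adjusted p = 0.0106) and without any one of 11 arrays (adjusted p up to 0.0220): uninjured wild-type replicates 2 to 5, uninjured Myd88KO replicates 4 and 5 and each injured wild-type replicate. In Myd88KO tracheas the levels were -2.52, -3.84, -3.60, -3.53 and -3.30 without injury and -2.53, -0.01, -3.71, 1.15 and -3.99 after it. Injured replicates 2 and 4 were thus as high as injured wild-type tracheas, and replicates 1, 3 and 5 were no higher than uninjured ones. The log2 difference of 1.54 (SE 0.77, adjusted p = 0.284) was not significant.

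Ccl5 showed no such pattern. The log2 level of its first probe lay between -1.28 and 1.55 over all 20 arrays, and each pair of groups overlapped. The log2 difference after injury was 0.56 (95% confidence interval -0.25 to 1.36, adjusted p = 0.382) in wild-type and -0.21 (-1.02 to 0.59, adjusted p = 0.810) in Myd88KO tracheas, and the second probe gave 0.60 and -0.26.

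Ccl6 and Ccl9 encode C10 and MIP-1gamma, rodent chemokines of myeloid cells that bind Ccr1. In uninjured wild-type tracheas the log2 level of Ccl6 was 2.27, 1.77, 2.06, 2.10 and 2.33, the narrowest spread of the 7 genes that rose (SD 0.22). It was 6.35, 5.71, 4.37, 5.26 and 6.53 after injury, a rise of 11.6-fold without overlap (log2 difference 3.54, SE 0.57, adjusted p = 0.000829). Myd88KO tracheas gave 2.92, 1.23, 0.97, 1.32 and 2.05 without injury and 2.93, 5.19, 2.93, 5.01 and 1.58 after it.

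Again, injured Myd88KO replicates 2 and 4 reached the range of injured wild-type tracheas, replicates 1 and 3 lay beside the highest uninjured value and replicate 5 lay inside the uninjured range. The log2 difference of Ccl6 was 1.83 (SE 0.57, adjusted p = 0.0817). For Ccl9 the log2 level was 0.99, 0.73, 0.40, 0.57 and 0.90 in uninjured and 4.72, 3.81, 2.25, 3.63 and 5.07 in injured wild-type tracheas. This gene rose 9.07-fold (log2 difference 3.18, SE 0.59, adjusted p = 0.00206). In Myd88KO tracheas Ccl9 gave 1.39, 0.43, 0.22, 0.38 and 0.64 without injury and 1.37, 3.88, 1.41, 3.94 and 0.36 after it, with the same high pair of replicates (log2 difference 1.58, SE 0.59, adjusted p = 0.148).

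Ccl11 encodes eotaxin, which attracts eosinophils through Ccr3. Its log2 level ranged from -1.25 to 0.48 over all 20 arrays and did not separate any groups. The log2 difference after injury was -0.19 (95% confidence interval -0.85 to 0.48, adjusted p = 0.756) in wild-type and -0.023 (-0.69 to 0.64, adjusted p = 0.979) in Myd88KO tracheas. Of the 4 eosinophil markers none was tested, and Epx and Il5ra were well above background on 0 of 20 arrays. Siglecf was well above background on 0 of 5 uninjured arrays of either genotype, on 5 of 5 injured wild-type and on 2 of 5 injured Myd88KO arrays. For Prg2 this was so on 1 of 5 uninjured and 2 of 5 injured wild-type arrays, and on 0 of 5 uninjured and 3 of 5 injured Myd88KO arrays.

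Ccl20 encodes MIP-3alpha, an epithelial chemokine that attracts dendritic cells and lymphocytes bearing Ccr6, and was the only member to fall. Its log2 level was -0.56, -1.42, -1.15, -1.64 and -0.66 in uninjured wild-type tracheas and -4.38, -3.97, -5.12, -5.71 and -4.02 after injury, when 2 of 5 arrays had signal well above background. All injured values lay below all uninjured values. Ccl20 fell 11.7-fold in wild-type tracheas (log2 difference -3.55, SE 0.58, adjusted p = 0.000907), and with normexp the log2 difference was -1.90 (adjusted p = 0.000352).

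In Myd88KO tracheas the log2 level of Ccl20 was -3.26, -2.53, -2.17, -1.87 and -2.55 without injury and -4.47, -5.25, -4.97, -7.14 and -2.39 after it. Replicate 5 of the injured group, in which the other 7 genes were lowest, lay inside the uninjured range, and 2 of the 5 injured arrays were well above background. The log2 difference was -2.37 (SE 0.58, adjusted p = 0.0320), without replicate 5 it was -2.98 (adjusted p = 0.000481), and with normexp it was -0.94 (adjusted p = 0.0628). Among 8 epithelial markers, Scgb1a1 of secretory club cells was called lower in both genotypes (log2 difference -7.91 in wild-type and -6.24 in Myd88KO tracheas) and the other 7 were not called, with 1 injured Myd88KO array left out for Scgb1a1 as an outlier spot. The part of secretory cells in the fall of Ccl20 was not tested.

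**Figure D2:**
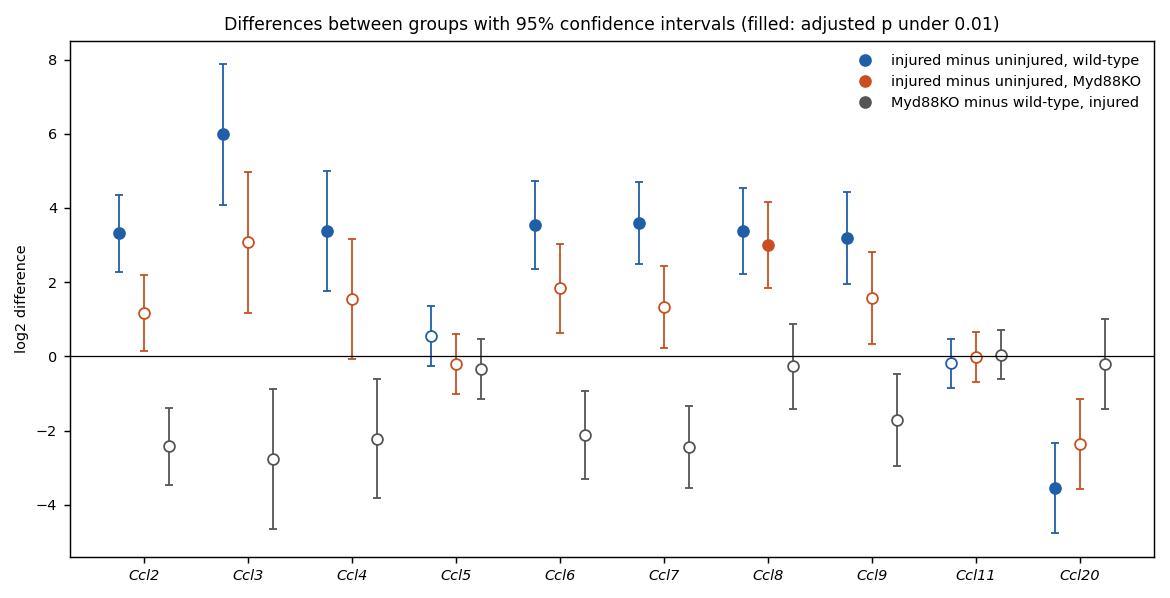
Log2 differences between groups for the first probe of each gene, with 95% confidence intervals from limma. Blue points are injured minus uninjured wild-type, orange points injured minus uninjured Myd88KO, grey points injured Myd88KO minus injured wild-type tracheas, and filled points passed an adjusted p of 0.01. Ccl8 is the one gene filled in both injury comparisons and the one induced gene whose grey point, at -0.27, lies near 0. On single slides that Ccl8 difference ran from -2.54 to 1.76.

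Without injury, the ranges of the genotypes overlapped for every member but Ccl20, although that of Ccl6 was wider in Myd88KO (0.97 to 2.92) than in wild-type tracheas (1.77 to 2.33). No member probe was called between uninjured Myd88KO and wild-type tracheas (0.384% of all probes were called), and 11 of the 12 overlapped. Each of the 5 uninjured Myd88KO values of Ccl20 lay below each of the 5 wild-type values, as was seen for 0.806% of all probes in this direction. The mean log2 level was -1.09 ± 0.47 in wild-type and -2.48 ± 0.52 in Myd88KO tracheas (SD, n = 5 each), a difference of -1.39 (SE 0.58). The 2-sided exact permutation test gave p = 0.00794, the smallest that 5 against 5 allows, which follows from the lack of overlap. It was 1 of 10 such tests in uninjured tracheas, and more were made in injured tracheas and on levels relative to Ccl8. Over all probes the limma adjusted p was 0.744 (range over 29 alternatives 0.0498 to 1.00). On all 5 slides the Myd88KO array was the lower, and exchanging genotypes only within the 5 slides could not give a 2-sided p below 0.0625.

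After injury, the CC chemokines tended to be lower in Myd88KO than in wild-type tracheas, but none passed the threshold. Of the 10 genes, 9 had negative log2 differences, the median over the 12 probes was -1.91 beside -0.034 over all probes, and 0 of 12 were called against 0.380% of all probes. Ccl2 (log2 difference -2.42, SE 0.49, adjusted p = 0.0207) and both Ccl7 probes (-2.45 and -2.39, SE 0.53 each, adjusted p = 0.0326 and 0.0386) reached an adjusted p under 0.05, as 0.449% of all probes did in this direction. These 3 probes passed 0.01 without injured wild-type replicate 3 (adjusted p of Ccl2 0.00359, range over 30 alternatives 0.00359 to 0.403). No member separated the injured groups, against 1.26% of probes that were lower without overlap.

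Within slides, Ccl2, Ccl6 and Ccl7 were lower in the injured Myd88KO array on 5 of 5 slides. The difference of Ccl2 on slides 1 to 5 was -3.72, -1.24, -1.23, -1.03 and -4.88, and was thus largest on the slides of the second scanning day. That day gave a mean difference of -4.30 and the first -1.17. For all 7 genes that rose in wild-type tracheas, the second day gave the more negative difference. It was -4.18 against -0.74 on the first day for Ccl6, -4.03 against -0.16 for Ccl9 and -4.56 against -0.65 for Ccl4. Ccl3 gave -5.27 against -1.09, the first Ccl7 probe -4.53 against -1.06 and Ccl8 -1.69 against 0.68. Ccl3 was lower on 4 slides, and Ccl4, Ccl8, Ccl9, Ccl11 and Ccl20 on 3 each. The part of the scanning day in these differences was not tested, although with day as a block the adjusted p of Ccl2 was 0.0128.

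**Figure D3:**
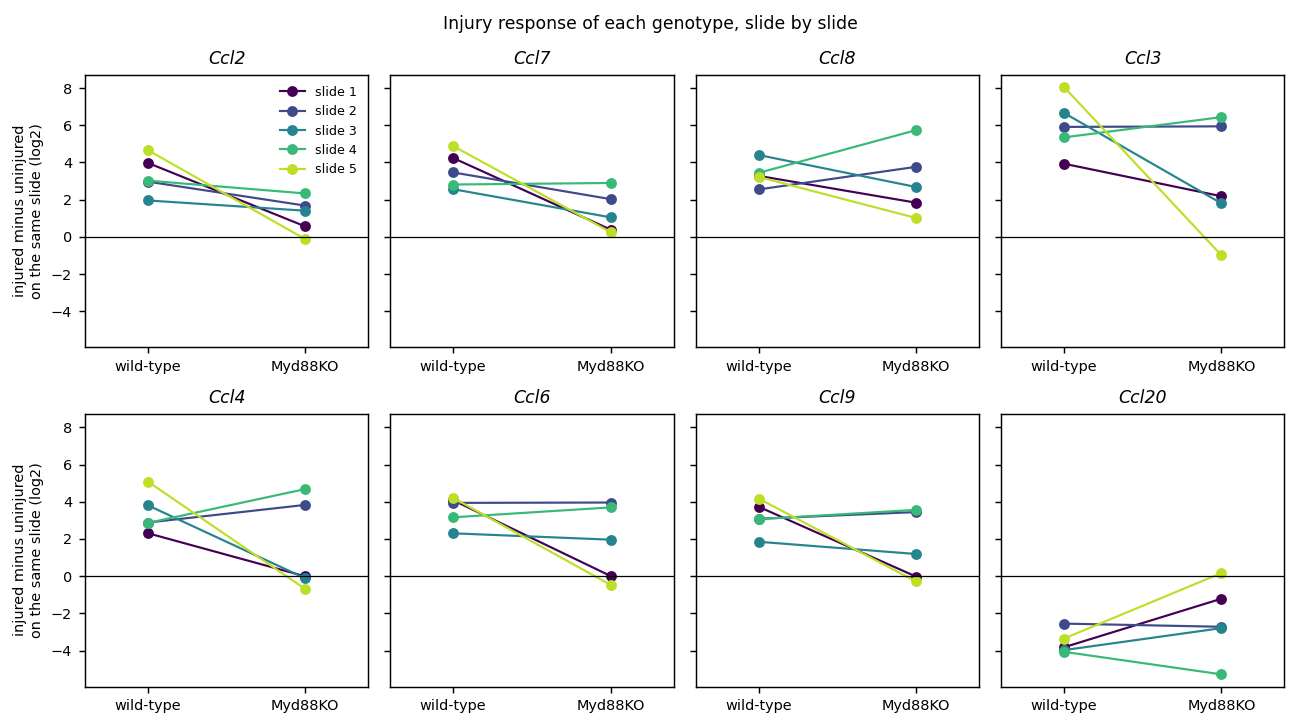
Injured minus uninjured log2 level on each of the 5 slides, for wild-type and Myd88KO arrays joined by a line, in the 8 genes called in wild-type tracheas. Wild-type responses all lie on one side of 0, whereas on slide 5 the Myd88KO response lies between -0.99 and 1.01 for each gene.

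The remaining 5 genes that rose in wild-type tracheas were further from the threshold. In injured tracheas the log2 difference of Myd88KO from wild-type was -2.76 for Ccl3 (SE 0.90, adjusted p = 0.199), -2.21 for Ccl4 (SE 0.77, adjusted p = 0.231), -2.11 for Ccl6 (SE 0.57, adjusted p = 0.107) and -1.71 for Ccl9 (SE 0.59, adjusted p = 0.229). That of Ccl8 was -0.27 (SE 0.55, adjusted p = 0.886), with a 95% confidence interval of -1.42 to 0.88, which does not show that the genotypes were alike. On slides 1 to 5 the Ccl8 difference was -0.84, 1.37, -1.09, 1.76 and -2.54, so its mean covers differences in both directions. Ccl5, Ccl11 and Ccl20 gave -0.34, 0.043 and -0.20, with adjusted p of 0.765 to 0.973.

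Whether the response to injury differed by genotype was tested directly, and no member probe was called, as no probe of the array was (0% of 26063). At an unadjusted p under 0.05, 5 of the 12 member probes and 2703 of all probes passed. The log2 difference between responses was -2.15 for Ccl2 (SE 0.70, unadjusted p = 0.00622, adjusted p = 0.391) and -2.27 for the first Ccl7 probe (SE 0.75, unadjusted p = 0.00681, adjusted p = 0.391), that is, a smaller rise in Myd88KO tracheas. For Ccl8 it was -0.37 (SE 0.78, adjusted p = 0.889) and for Ccl20 1.19 (SE 0.82, adjusted p = 0.610). A smaller response in Myd88KO tracheas was therefore not shown for any single gene.

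Ccl8 was singled out after its small mean difference between injured genotypes was seen, and each of the other 9 genes was expressed relative to it on the same array. These values describe that choice. Exact permutation p-values were computed on them but are not given, since Ccl8 was chosen from the same values. The offset between 2 probes has no meaning in such a ratio, and a difference between groups shows only that the genes changed unequally. Relative to Ccl8, the log2 level of Ccl2 lay between -1.78 and 0.58 in injured wild-type and between -3.25 and -1.90 in injured Myd88KO tracheas. Thus every Myd88KO array had less Ccl2 for its Ccl8 than every wild-type array, by 2.15 on average in log2. Ccl3 (difference -2.50), Ccl4 (-1.95) and Ccl7 (-2.18) likewise did not overlap. Relative to Ccl8, 0.157% of all probes were lower without overlap. That share is not a test of the members, because Ccl8 was chosen from the same values.

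Ccl6 (difference -1.85) and Ccl9 (-1.44) were lower on average with overlap. The differences of Ccl5 (-0.069), Ccl11 (0.31) and Ccl20 (0.066) were smaller. Without injured Myd88KO replicate 5 the differences of Ccl2, Ccl3, Ccl4, Ccl6, Ccl7 and Ccl9 ranged from -2.32 to -1.42. In uninjured tracheas the differences of these 6 genes were -0.51 to 0.041.

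**Figure D4:**
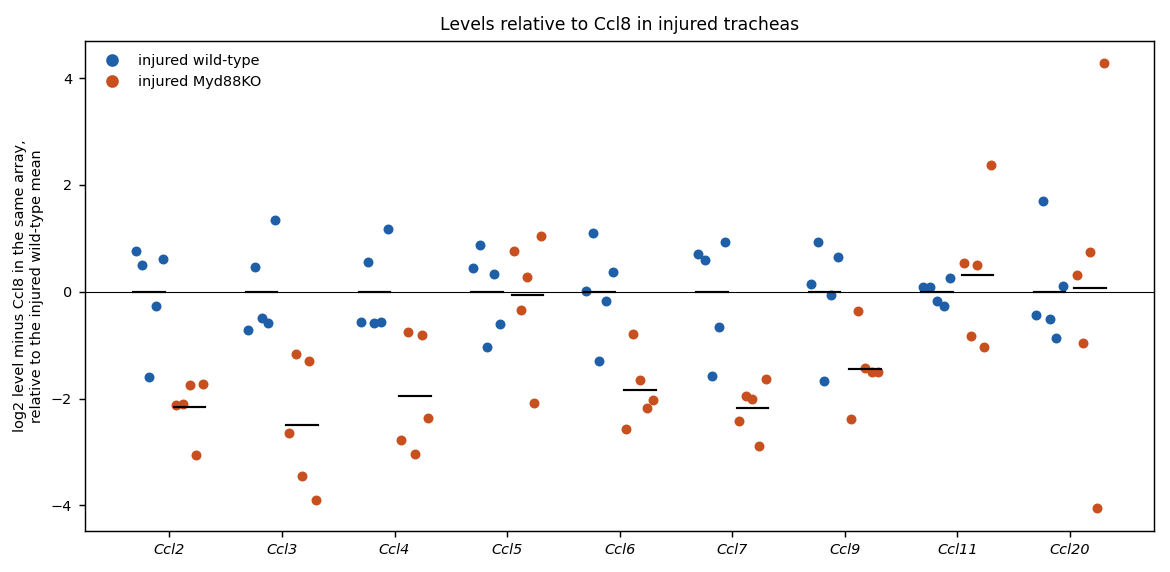
Log2 level of each of the other 9 genes minus that of Ccl8 on the same array, in injured tracheas, set to a wild-type mean of 0. Points are arrays and bars are group means. The Myd88KO points of Ccl2, Ccl3, Ccl4 and Ccl7 lie below all wild-type points, with mean differences of -1.95 to -2.50.

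For several members the injured Myd88KO tracheas varied most. The SD of the log2 level was 2.55 for Ccl3, 2.29 for Ccl4 and 1.54 for Ccl6 in injured Myd88KO, against 1.07, 1.00 and 0.87 in injured wild-type tracheas, whereas for Ccl2 it was 0.90 against 1.26. Replicates 2 and 4 had the highest levels of Ccl2, Ccl3, Ccl4, Ccl6, Ccl7, Ccl8 and Ccl9 in the group, and replicate 5 had the lowest of each. Leaving out replicate 5 raised the number of member probes called after injury in Myd88KO tracheas from 1 to 4, namely Ccl3 (log2 difference 3.87, adjusted p = 0.00532), Ccl6 (2.32, adjusted p = 0.00769), Ccl8 (3.45, adjusted p = 0.000353) and Ccl20. The share of all probes called in that fit is not given, so a rise over the whole array cannot be told apart from one of the members.

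After injury, mean levels of myeloid cell and fibroblast markers moved with these genes, although not every marker did. Among 8 monocyte and macrophage markers, Cd68 (log2 difference 3.27), Adgre1 (2.03) and Csf1r (1.55) were called higher after injury in wild-type tracheas and none in Myd88KO tracheas. In wild-type tracheas Itgam (2.57), Mrc1 (1.32), Cx3cr1 (0.76), Cd14 (0.35) and Lyz2 (-0.060) were not called. The mean log2 level of the 8 ranged from 0.76 to 1.15 in uninjured and from 1.86 to 2.88 in injured wild-type tracheas, and from 0.68 to 1.17 in uninjured Myd88KO tracheas. In injured Myd88KO replicates 1 to 5 it was 1.18, 2.42, 1.25, 2.43 and 1.03, so the replicates high in the chemokines were high in these markers too.

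Of 6 tested neutrophil markers, Csf3r was called higher after injury in wild-type tracheas (log2 difference 4.05, SE 0.83, adjusted p = 0.00380) and none in Myd88KO tracheas. In wild-type tracheas Retnlg (4.19), S100a8 (3.90), S100a9 (2.77), Cxcr2 (2.68) and Ltf (-0.033) were not called. The untested Ngp and Elane were well above background on 0 of 20 arrays. Of the other 2 untested markers, Mmp8 was well above background on 0 of 5 uninjured arrays of either genotype, on 5 of 5 injured wild-type and on 2 of 5 injured Myd88KO arrays, and Camp on 2 of 20 arrays. The mean log2 level of the 6 ranged from -1.27 to 1.30 in uninjured wild-type, 1.42 to 4.16 in injured wild-type and -2.85 to -1.32 in uninjured Myd88KO tracheas. Without injury it thus did not overlap between genotypes, unlike the chemokines that rose. In injured Myd88KO replicates 1 to 5 it was -1.09, 1.90, -1.43, 2.28 and -2.38. T and NK cell markers, where Ccl5 is abundant, had 0 of 9 called after injury in either genotype, with mean log2 levels between -4.30 and -2.42 over all 20 arrays.

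The 4 fibroblast markers, Col1a1, Col1a2, Col3a1 and Pdgfra, had 0 called in any comparison, but their mean log2 level did not overlap between uninjured (4.97 to 5.52) and injured (5.63 to 6.42) wild-type tracheas. It ranged from 4.68 to 5.61 in uninjured Myd88KO tracheas. In injured Myd88KO replicates 1 to 5 it was 4.67, 5.81, 5.20, 5.69 and 4.07, again highest in replicates 2 and 4 and lowest in replicate 5. The part of myeloid cells, lymphocytes and fibroblasts in the chemokine levels was not tested.

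**Figure D5:**
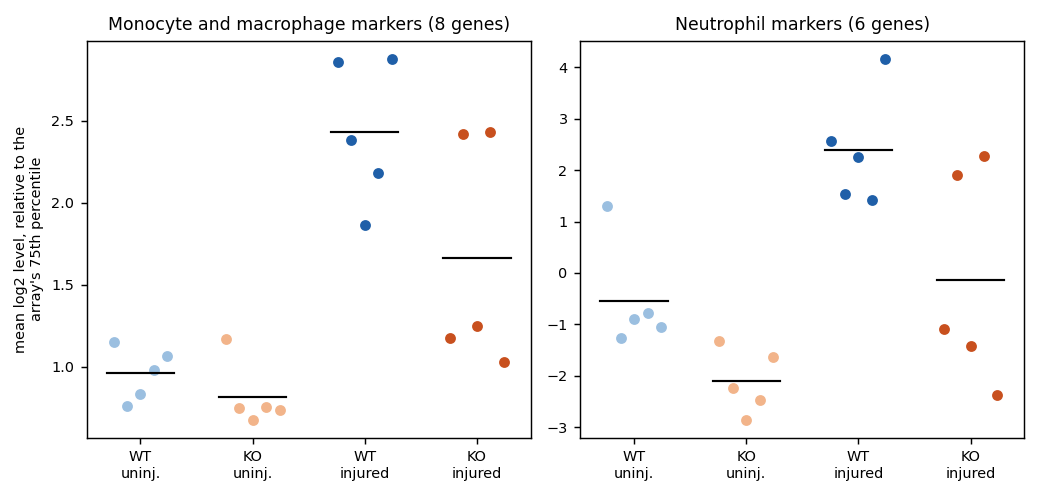
Mean log2 level of the tested monocyte and macrophage markers and neutrophil markers on each array, by group. Points are arrays, ordered from replicate 1 to 5, and bars are group means. Injured Myd88KO replicates 2 and 4 lie with the injured wild-type arrays for both lists and replicates 1, 3 and 5 lie within or near the uninjured ones.

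Receptors of the CC chemokine family, not all of them for the genes described here, were measured less completely, and 10 of 14 were tested. Ccr7, the lymph node homing receptor of dendritic cells and T cells, rose by 2.47 (SE 0.42, adjusted p = 0.00116) and Ackr1, which binds and presents chemokines on venular endothelium and red cells, by 1.35 (SE 0.28, adjusted p = 0.00423) in wild-type tracheas.

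Ccr2, the receptor of Ccl2 and Ccl7, gave a log2 difference of 1.21 (adjusted p = 0.0212) in wild-type and 1.02 (adjusted p = 0.0950) in Myd88KO tracheas. Ccr3, the receptor of Ccl11, gave 0.97 (adjusted p = 0.190) and 0.87 (adjusted p = 0.315). Ccr6, the receptor of Ccl20, gave 0.75 (adjusted p = 0.0876) and 0.083 (adjusted p = 0.905), while its ligand was low. The decoy receptor Ackr2 gave -0.045 (adjusted p = 0.927) and -0.20 (adjusted p = 0.694). Ccr1 was well above background on 1 of 20 arrays and Ccr8 on none, so neither was tested.

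Other CC chemokines and cytokines known to induce the family showed no called change. Of 11 further CC chemokine genes 10 were on the array under a known name, 8 were tested and 0 were called in any comparison. Ccl12, a further Ccr2 ligand, came closest, with a log2 difference of 2.15 after injury in wild-type tracheas (adjusted p = 0.0104) and 0.62 in Myd88KO tracheas (adjusted p = 0.551). Ccl24, another eotaxin, gave 1.80 (adjusted p = 0.0348) and 0.70 (adjusted p = 0.512). Of 12 inducing cytokines 5 were tested and 0 were called. Il1b, whose receptor signals through Myd88, gave 3.84 (adjusted p = 0.0227) in wild-type and 2.40 (adjusted p = 0.224) in Myd88KO tracheas, and Tnf gave -0.21 (adjusted p = 0.839) and 0.48 (adjusted p = 0.651). Without injury, the mean log2 level of the 5 ranged from -3.77 to -2.80 in wild-type and from -5.03 to -4.16 in Myd88KO tracheas. Tnf (log2 difference -1.95, adjusted p = 0.140) and Il1a (-2.54, adjusted p = 0.195) were lower in Myd88KO tracheas without overlap. Il1b (-1.53), Tslp (-0.65) and Il13 (0.099) overlapped, and 0.806% of all probes were lower without overlap. Il1a was well above background on 2 of 5 uninjured Myd88KO arrays.

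The genes whose levels followed each member most closely over the 20 arrays were ranked by Pearson r among all tested probes, as a description, since the arrays fall into injured and uninjured sets. Ccl2 was followed by Ms4a4c (r = 0.974), BC013712 (0.972) and Ms4a6b (0.966), and Ccl7 by BC013712 (0.978), Lrrc25 (0.972) and Ms4a6b (0.970), so that the pair shared 2 of 3 genes. Ccl3 was followed by Fgr (0.982), Clec4e (0.978) and Ctss (0.973), and Ccl4 by Fpr2 (0.981), Cd300lf (0.974) and Pilra (0.972). For Ccl6 they were Nxpe5 (0.982), Apoc2 (0.979) and Ms4a6d (0.978), and for Ccl9 Il10ra (0.988), Fcer1g (0.988) and Nrros (0.987). With group means removed, these 18 values ranged from 0.904 to 0.973.

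Ccl8 was followed less closely, by Clec4e (r = 0.950), Snx5 (0.946) and Nasp (0.944), with values of 0.796 to 0.846 once group means were removed. The genes nearest to Ccl5 were Psmb8 (0.840), Cxcl10 (0.817) and H2-DMb1 (0.816), which serve antigen processing and presentation or are induced by interferon. Ccl11 was nearest to Rap1a (0.896), Xlr (0.892) and Zfp367 (0.884). Ccl20 was nearest to AK021069 (0.927), Cdh26 (0.926) and Scn3b (0.924), with 0.727 to 0.775 after group means were removed.

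Among the members, Ccl2 with Ccl7 (r = 0.992 over 20 arrays) and Ccl6 with Ccl9 (0.984) were closest, and they remained at 0.967 and 0.964 with group means removed. Ccl20 ran against Ccl8 (r = -0.874, and -0.621 with group means removed).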

How the data were processed

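Whole-trachea RNA of 20 mice was hybridised to one-colour arrays, and the authors deposited the Agilent Feature Extraction 9.5.1.1 output, whose processed intensity per spot is background-corrected but not normalised between arrays. The value table the authors also deposited repeats these intensity values after rounding. Spots of a probe were averaged on the log2 scale, leaving out control spots and 1960 values marked as outliers, and the 75th percentile of each array was subtracted. Probes well above background on at least 10 of 20 arrays were tested with limma 3.58.1 in R 4.3.3, in 1 fit over the 4 groups of 5, with Benjamini-Hochberg adjustment within each comparison and calls at an adjusted p under 0.01. The number of arrays limits the precision. Calls were recomputed with other normalisations, filters, blocks and samples, and the code was tested on simulated data.

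Every member is named, as are listed marker, receptor and cytokine genes that bear on them and, for each member, the 3 genes of highest Pearson r over the 20 arrays. Members and lists were chosen with earlier results of these data known. Symbols came from the accession for 22951 of 41174 probes. The file headers put each replicate number on its own slide. Deviations from the group means correlated with r from -0.26 to 0.48 (median 0.24, 23 of 30 pairs over 0.1) between arrays of the same slide and with a median of -0.080 between slides. 1 item is not reported here.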

Additional observations from a re-analysis of the deposited data

Results flagged for a closer look

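Among 40 sets of 5 tracheas (10 genes in 4 groups), a single trachea stood apart in 2, where chance gives about 1 in 20. Ccl2 in uninjured wild-type replicate 1 had a log2 level of 0.35, and the nearest value was -0.61. Ccl3 in injured wild-type replicate 5 had a log2 level of 1.79, and the nearest value was -0.10.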

How the results depend on the processing

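In the wild-type injury comparison 9 member probes were called, and leaving out each array in turn gave 8 to 9. That count was 8 with no filter on dim probes, where Ccl4 was lost, 6 with the methods' parametric test, where Ccl2 and Ccl7 were lost, 6 when only probes well above background on all 20 arrays were tested, where Ccl3, Ccl4 and Ccl20 were not tested, and 9 under the other alternatives except the slide block. In the Myd88KO injury comparison 1 was called, with a range of 0 to 4 on leaving out an array, the highest without injured Myd88KO replicate 5. That count was 0 with no filter on dim probes, 0 with only the compared groups in the fit, 0 with the methods' parametric test, 5 with array weights and 2 at an adjusted p under 0.05. Between injured genotypes 0 were called, 0 to 3 on leaving out an array (3 without injured wild-type replicate 3), and 3 at an adjusted p under 0.05. The uninjured genotype comparison and the difference between responses gave 0 to 0. The shares of all probes called under these alternatives are not given, so these counts do not show a shift particular to the members. The cause of these shifts was not tested. No member changed direction in a called comparison.

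With the slide, and thus the replicate number, as a block, 8, 1, 0, 0 and 0 probes were called in the 5 comparisons, Ccl4 being lost, and no other call changed. Signals near background limit the size of the Ccl3 and Ccl20 differences.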
